A study of Mus musculus with 4 samples.

Results

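Endothelial cells without arterial markers were followed in MERFISH data of the mouse striatum, in which individual mRNA molecules are imaged and counted inside tissue sections. The members were chosen from measured counts of 14 of the 383 panel genes. A cell was taken when at least 4 of the 6 endothelial genes Cldn5, Itm2a, Esam, Adgrl4, Abcb1a and Sox18 were detected and together made up at least 6% of its counts. It was left out when the arterial genes Gkn3, Bmx, Sema3g and Vegfc summed to more than 1 count, or when the mural genes Acta2, Myl9, Pdgfrb and Vtn reached 2% of its counts. This gave 7626 members among 281824 kept cells (2.71%) and 320663 segmented cells. By section, there were 2262 and 2320 members at 2 months and 1294 and 1750 at 18 months.

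The study compared wild-type C57BL/6NTac mice at 2 months (young, 2 sections) and 18 months (aged, 2 sections). Per the study's methods, each section was a coronal slice of the striatum. The study's methods call all replicates biological, and its reporting summary says that both sexes were used, without naming these sections. A legend of its MERFISH astrocyte maps gives n = 4 mice. The labels give no sex and tie no section to a mouse, so the p-values below are described as measuring the spread between sections.

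Endothelial cells line the brain's vessels and form the blood-brain barrier. Tight junctions seal the space between neighbouring cells, so that nutrients enter through membrane transporters and many foreign compounds are pumped back into the blood. Along the vessel tree these cells change gradually, from arteries through capillaries to veins, and most of them lie in capillaries.

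Decoded transcripts per section ranged from 18816375 to 36116711, and the first aged section was the shallowest. Median transcripts per kept cell were 400 and 325 at 2 months against 215 and 293 at 18 months. Medians per member were closer, with 233 and 211 at 2 months against 170.5 and 188 at 18 months. No cell identifier occurred in more than 1 section.

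The label endothelial held up in genes that had no part in the choice. Levels are given as transcripts per 10000 panel transcripts of the same cells, and values per section follow the order first young, second young, first aged, second aged. The 14 other endothelial genes on a separate list (among them Adgrf5, Rasip1, Nostrin, Slco1c1 and Abcg2) summed to 1372, 1325, 1389.5 and 1376 in members, against 81.9, 77.7, 88.5 and 83.1 in kept cells that failed the endothelial rule. Of these 14 genes, 13 were at least 1.5 times higher in members than in those other cells, and Foxq1 was not. Because the same cells were set apart by correlated genes, these ratios are descriptions and were not tested. In all, 112 of 383 genes were at least 1.5 times higher in members, 8 of them genes of the rule and 104 outside it.

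The genes of the rule behaved as the rule required. Cldn5, the main claudin of the barrier's tight junctions, stood at 63.3, 53.4, 44.9 and 62.6 in members, and at 1.78 to 2.37 in other cells. Abcb1a, which encodes the efflux pump P-glycoprotein, stood at 256, 231, 262 and 232. Adgrl4, an adhesion receptor of endothelium, had 189, 184, 230 and 232, and was the panel gene with the highest ratio of members over other cells (42.1). Itm2a was at 189, 255, 170 and 159. Esam, an endothelial adhesion molecule, was at 125, 114, 109 and 113. Sox18, a transcription factor of endothelial cells, was at 53.3, 46.9, 32.5 and 42.0. The arterial genes summed to between 4.65 and 6.48 in members and to between 122 and 145 in arterial endothelial cells, which met the same endothelial and mural limits but had an arterial sum of at least 2. The mural genes summed to 21.9, 18.6, 14.7 and 13.7 in members, and Acta2, the smooth muscle actin, did not exceed 0.52.

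Transcripts of other cell types were present at unequal levels. The neuron list (7 genes, such as Syp and Snhg11) summed to 127 to 129 in members and to 1307 to 1357 in other cells. The microglia list summed to 33.1 to 38.2 in members and 62.2 to 68.2 in other cells. The astrocyte list (7 genes, such as Aqp4 and Gja1) was nearly as high in members as elsewhere, at 308, 327, 337 and 307 against 300, 318, 382 and 340. Rgs5, a pericyte gene that the rule did not use, stood at 166 to 207 in members. The 3 mural genes outside the rule, Rgs5 among them, were higher in members than elsewhere. They summed to 186 to 228 in members and 31.5 to 41.3 in other cells. No gene of the neuron, microglia and astrocyte lists was at 0 in members in every section, and astrocyte endfeet and pericytes touch capillaries in this tissue. Their part in the results that follow was not tested beyond the comparisons given beside them.

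The limits of the rule on arterial counts and on marker share cut through gradients. Over all sections together, 6678 members had no arterial count and 948 had 1, while 266 cells just outside had 2. Mgp, an arterial matrix gene outside the rule, stood at 1.82 with no arterial count, 3.44 with 1, 8.58 with 2, and 32.5 in the 212 cells with 4 or more. Edn1, which encodes the vasoconstrictor endothelin 1, stood at 16.6, 27.5 and 40.9 in cells with 0, 1 and 2 arterial counts. The 1495 members with a marker share of 6 to under 7% had a level of 1242 for the 14 other endothelial genes. The 1399 cells just below the limit, at 5 to under 6%, had 1106. At the limit of 4 detected markers this level did not fall. It was 1420 in the 2309 members with 4 markers, and 1464 in 1409 cells with 3 that were otherwise as members. Those cells were shallower, with a median of 74 transcripts against 130.

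As a share of kept cells, members came to 3.33% and 3.28% at 2 months and to 1.89% and 2.35% at 18 months. Both aged sections lay below both young ones. The mean was 3.30% ± 0.0339 (SD, n = 2) at 2 months and 2.12% ± 0.321 (SD, n = 2) at 18 months, a ratio of 0.642. Their density was 66.7 and 58.0 per mm² at 2 months and 34.5 and 45.0 at 18 months, a ratio of 0.638. For both measures the two-sided exact permutation test gave p = 0.33, the smallest value that 2 sections against 2 can give, so this test cannot reach 0.05 here. The median distance from a member to the next member was 54.5 and 58.9 µm at 2 months and 73.3 and 66.1 µm at 18 months.

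Depth moved with age, and the rule depends on depth because it needs 4 detected genes. Counts of the other 3 sections were thinned to the median transcripts per kept cell of the first aged section. Members then made up 2.74%, 2.78%, 1.89% and 2.02% of kept cells. Medians per member differed less than those of kept cells, so the depth of members was not matched. The limit of 10 detected genes was not applied again. Both aged sections stayed below both young sections, and the ratio was 0.708. Under a stricter rule (5 markers and 8% of counts) the ratio was 0.458, and under a looser rule (3 markers and 4%) it was 0.778. The summed level of the 6 markers over all kept cells differed less between ages, at 44.4, 45.9, 42.0 and 40.2 per 10000 transcripts. Members held 32.7% and 34.1% of all transcripts of these 6 genes at 2 months and 26.3% and 26.5% at 18 months. All 6 markers were detected in 42.0% and 32.1% of young members, and in 15.9% and 24.9% of aged members. Fewer endothelial cells and fewer cells recognised as endothelial cannot be told apart from these counts. Arterial cells per 100 members numbered 8.93, 6.64, 6.41 and 10.1, and the ages overlapped.

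**Figure D1:**
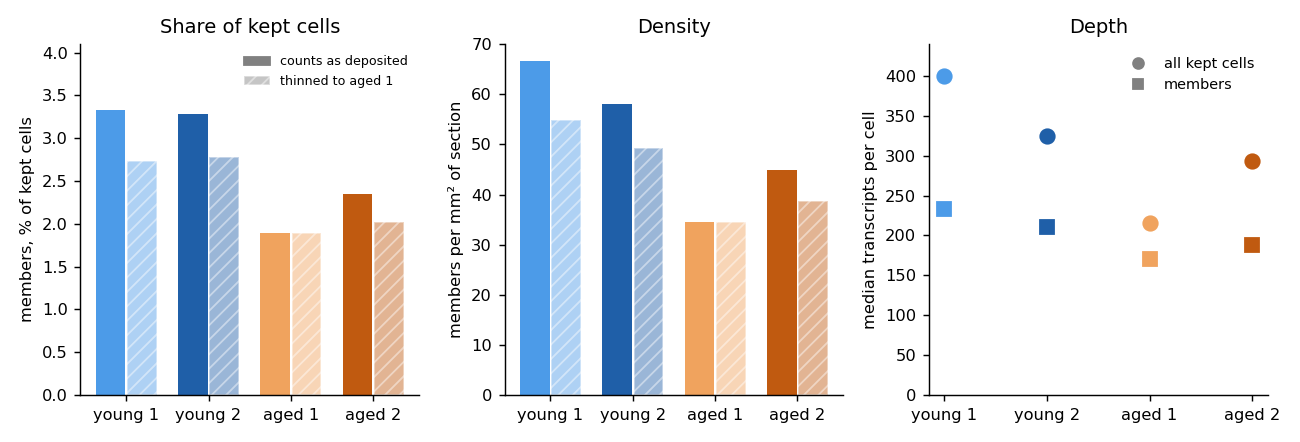
Members as a percent of kept cells (left) and per mm² (middle) in each section, with counts as deposited (solid bars) and after thinning to the first aged section (hatched bars), and the median number of transcripts per cell (right; circles, all kept cells; squares, members). Both aged sections lie below both young sections before thinning (1.89% and 2.35% against 3.33% and 3.28%) and after it (1.89% and 2.02% against 2.74% and 2.78%), and depth is also lower in the aged sections.

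Members were spread over the whole section. The striatal zone was defined as places where at least 40% of the kept cells within 150 µm carried a spiny neuron signature, and the white matter zone as places where at least 40% of those within 100 µm carried an oligodendrocyte signature. The rest of the section is called the remaining zone. The striatal zone held 818, 630, 420 and 470 members, the white matter zone 69, 60, 48 and 73, and the remaining zone 1375, 1630, 826 and 1207. Density was lower in white matter than in the striatal zone in 4 of 4 sections, at 43.1, 30.9, 18.3 and 29.9 members per mm² against 67.5, 54.0, 39.2 and 44.0. The ratio within sections was 0.639, 0.572, 0.467 and 0.679, and the exact paired permutation test gave p = 0.125, the smallest it can give with 4 sections. Between the striatal and the remaining zone the ratio was 1.06, 0.918, 1.22 and 0.993 (exact paired permutation test, p = 0.75). Within the striatal zone alone, members made up 3.21% and 3.02% of kept cells at 2 months and 2.04% and 2.25% at 18 months.

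**Figure D2:**
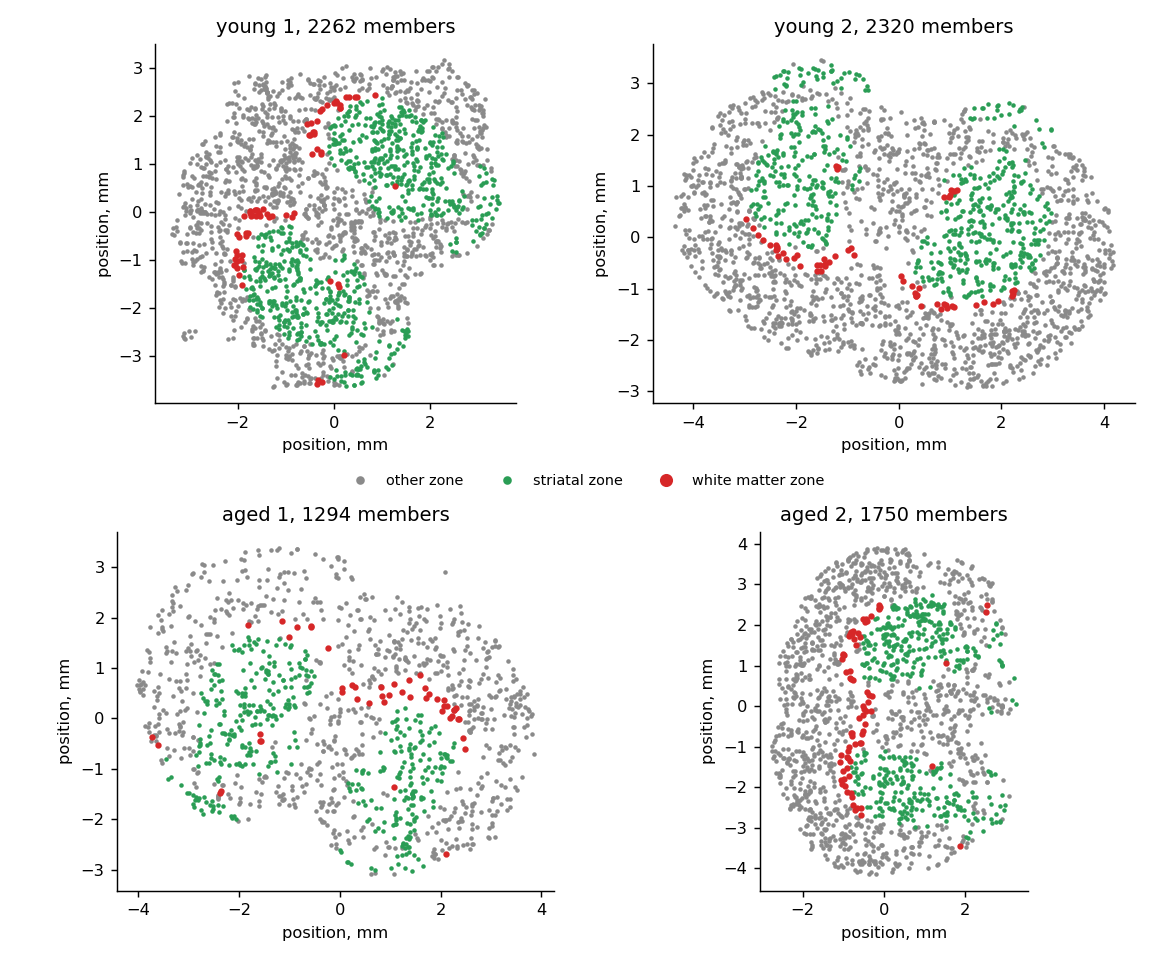
Position of every member in the 4 sections, in mm from the mean position of the members, with members of the striatal zone in green, of the white matter zone in red and of the remaining zone (other zone in the legend) in grey. Members fill the tissue in all sections, the white matter members (48 to 73 per section) lie mostly in narrow bands beside the striatal zone, and the aged sections show fewer points (1294 and 1750) than the young ones (2262 and 2320). Sections lie in different orientations, as deposited.

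With counts summed over members, no gene changed with age past the threshold. The edgeR quasi-likelihood test covered 381 of 383 genes and called 0 (0% of those tested) at an adjusted p under 0.05, and 30 (7.87%) had an unadjusted p under 0.05. DESeq2 called 1 gene, Cp, and limma called 0, with 24 and 32 genes at an unadjusted p under 0.05. In arterial endothelial cells, described below, edgeR called 0 of 278 genes, with 17 (6.12%) at an unadjusted p under 0.05, and in all other kept cells it called 1 of 383 (0.261%), Il33, with 29 (7.57%). The fits that left out the first or the second young section called 1 gene each, Stra6 higher and Sst lower, and those without an aged section called 0. Since no gene passed, the 10 genes with the lowest unadjusted p among the 104 enriched ones outside the rule are given by their values, and all of them lacked an adjusted p under 0.05. In each of these 10 genes the ages did not overlap, which their choice by lowest p made likely. Among all 104 enriched genes, 16 had both aged sections above both young ones and 29 had both below. Over all genes tested, 14.2% had both aged sections above both young ones and 21.8% had both below.

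Of the 10 genes, 5 were at higher levels in the aged sections. Cp, which encodes the copper-binding ferroxidase ceruloplasmin (chr3:19957054-20009145, plus strand, GRCm38), stood at 22.6 and 23.7 in young members and 40.3 and 35.9 in aged members, a log2 difference of 0.76 ± 0.15 (SE; adjusted p = 0.383 by edgeR). At an equal depth of 100 transcripts per cell, a Cp transcript was found in 18.3% and 19.0% of young members and 31.6% and 27.5% of aged members. Without thinning these shares were 35.3%, 35.2%, 46.8% and 46.2%. Spiny neurons, which should lack Cp, gave 1.77% to 2.27% at the same depth.

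Timp3, an inhibitor of matrix metalloproteinases, stood at 105 and 109 against 179 and 145 (log2 difference 0.64 ± 0.14, SE). Its level in other kept cells was 27.7, 33.1, 45.3 and 36.15, so there too both aged sections were the higher. Fxyd5 had 6.30 and 6.93 against 9.315 and 10.8. Slc6a6, the taurine transporter, had 3.99 and 6.50 against 9.315 and 8.74. Ahnak, a large scaffold protein, had 237 and 228 against 322 and 271. In other kept cells Ahnak had 20.1 and 21.0 against 31.8 and 24.5, again with both aged sections the higher. In other cells Cp stood at 4.67, 4.46, 6.28 and 4.76, and its log2 age difference was 0.53 larger in members than there (adjusted p = 0.0591 by edgeR), which did not pass.

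The other 5 were at lower levels in the aged sections. Cd38, an enzyme that consumes NAD, stood at 11.03 and 9.49 in young members and 6.28 and 5.20 in aged ones (log2 difference -0.80 ± 0.20, SE; adjusted p = 0.387 by edgeR). In other kept cells Cd38 stood at 1.91 and 2.06 against 1.45 and 1.49, so there too both aged sections were the lower. Nampt, the rate-limiting enzyme of NAD salvage, stood at 84.9 and 80.5 against 53.1 and 67.4, with a log2 difference of -0.41 ± 0.15 (SE). Vwa1, a matrix protein of basement membranes, had 73.1 and 64.7 against 40.2 and 50.7. Col4a2, a chain of basement membrane collagen, had 15.4 and 11.9 against 8.12 and 9.26. Riiad1 had 3.92 and 3.82 against 2.05 and 2.23, and in other kept cells 1.46 and 1.39 against 1.21 and 1.11. At equal depth a Vwa1 transcript was found in 52.0%, 47.1%, 32.1% and 37.6% of members, against 2.88% to 5.77% of spiny neurons. Unthinned, the member shares were 75.3%, 69.1%, 47.5% and 56.6%. Scaled by the volume of the members in place of their transcripts, the median gene fell by 0.44 on the log2 scale, and 9 of the 10 genes kept their direction, while Ahnak turned from 0.40 to -0.08. Cp had a log2 difference of 0.29 on that scale.

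**Figure D3:**
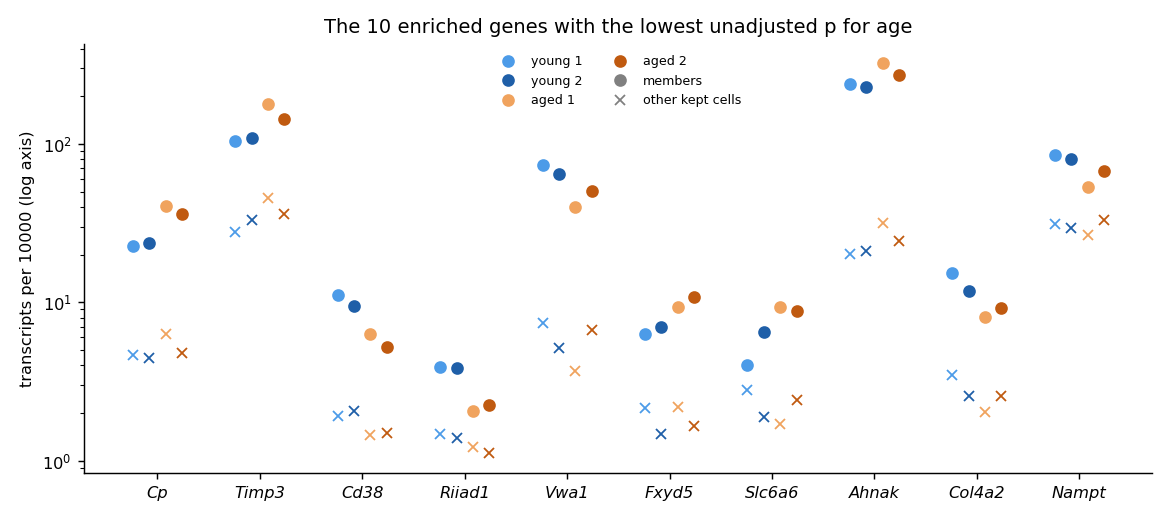
Level of each of the 10 named genes in members (circles) and in other kept cells (crosses), as transcripts per 10000 on a log axis, with 1 point per section (blue, young; orange, aged). In members both aged points lie above both young points for Cp, Timp3, Fxyd5, Slc6a6 and Ahnak, and below them for Cd38, Riiad1, Vwa1, Col4a2 and Nampt. None of these differences passed the adjusted threshold in edgeR.

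Lists of genes that share a role are described by counts beside the same counts over all genes. The median log2 difference of all 381 tested genes was 0.02. Of these genes, 14.2% had both aged sections above both young ones and 21.8% had both below. Among 11 barrier transporters, which include Abcb1a of the rule, 1 had both aged sections above both young ones (Slc6a6). In 2 both were below, and the median was -0.03. Abcg2, a drug efflux pump, stood at 169, 157, 148 and 160.5. Slco1c1, which carries thyroxine, stood at 361, 340, 376 and 331. In both, the ages overlapped. Neither gene had an adjusted p under 0.05, and the same holds for the age difference of every gene named from the lists that follow.

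Among 9 junction and surface genes, which include 3 of the rule, 3 were apart with age upwards and 3 downwards. Podxl, a sialomucin of the luminal surface, stood at 124.5, 112, 142 and 131, and Cd34 at 94.3, 95.2, 62.1 and 99.7. Rasip1, a regulator of vessel lumen and junctions, was at 73.0, 68.6, 61.8 and 65.0. Of 8 transcription factors, 1 was apart upwards and 2 downwards. Sox18, a gene of the rule, was among those downwards. Klf2, a factor induced by blood flow, varied more within the ages than between them, at 25.8, 54.1, 44.4 and 38.2.

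The activation and adhesion list of 7 genes had none apart upwards and 1 downwards. Vcam1, which binds leukocytes, stood at 13.4, 16.2, 17.5 and 9.67. Icam1, the gene apart downwards, stood at 5.06 and 4.92 against 4.39 and 2.45. Vwf, the clotting factor stored by endothelium, stood at 29.2, 25.2, 28.4 and 33.4, and Edn1 at 17.8, 15.8, 15.8 and 23.7. Both genes overlapped between ages. Of 7 genes for signals to neighbouring cells, 2 were apart upwards and none downwards. Pdgfb, the ligand that recruits pericytes, had 66.4, 52.5, 45.5 and 71.7, and the chemokine Cxcl12 had 115, 115, 109 and 155, so both overlapped.

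The 7 genes of the basement membrane and matrix had 3 apart upwards and 3 downwards. Fn1, fibronectin, was among the lower, at 153 and 160 against 132 and 129. In MHC class I, 2 of 5 genes were apart upwards and 2 downwards. B2m, its shared light chain, stood at 48.3 and 55.65 against 75.0 and 57.3, and Tapbp, which helps load its peptides, at 5.50 and 5.50 against 3.82 and 3.404. The 11 interferon response genes had 1 apart upwards and 2 downwards, with a median log2 difference of -0.00075, and the 14 genes of NF-kB and cytokines had 1 and 3. Over all genes tested, 14.2% were apart upwards and 21.8% downwards. The 10 genes of cell cycle arrest and stress had 0 apart upwards and 7 downwards, with a median of -0.40. Among the 7 were the cell cycle inhibitor Cdkn2a (0.47, 0.43, 0.37 and 0.25) and the cell death gene Bax (2.57, 2.14, 1.395 and 1.91), both at low levels. Cdkn1a, another cell cycle inhibitor of that list, stood at 9.22, 13.4, 12.3 and 9.42. Among the 10 sirtuin and NAD genes, 0 were apart upwards and 6 downwards, and the list summed to 145 and 144 in young members and to 105 and 116 in aged members. In other kept cells that sum was 103, 105, 95.4 and 103. The log2 age difference was below 0 in 9 of the 10 genes, in members and in other kept cells alike. Without Nampt and Cd38 the other 8 genes summed to 49.3 and 53.6 against 45.4 and 43.4 in members, so most of the difference lay in those 2 genes.

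Age differences were then compared with those of arterial endothelial cells, of which there were 202, 154, 83 and 176. Of the 10 genes named above, 7 had both aged sections on the same side of both young ones in arterial cells as in members (Timp3, Fxyd5, Ahnak, Cd38, Riiad1, Vwa1 and Col4a2). Timp3, for example, stood at 205 and 202 against 288 and 247 in arterial cells, and Vwa1 at 71.1 and 67.4 against 39.4 and 52.1. Some of the 7 had low levels there, such as Riiad1 with 3.77 and 3.33 against 2.35 and 2.02. The share of all genes with the ages apart is not given for arterial cells. Whether 7 of 10 exceeds that share therefore cannot be judged. The fit of the difference covered 363 genes and called 2 (0.551%), Cp and Nampt, with 25 (6.89%) at an unadjusted p under 0.05. Cp stood at 72.8 and 66.6 in young arterial cells and at 76.5 and 71.2 in aged ones, where the ages overlapped. Its log2 age difference was 0.59 ± 0.15 (SE, adjusted p = 0.0208 by edgeR) larger in members than in arterial cells. Nampt stood at 44.8 and 46.4 in young arterial cells and 40.02 and 56.0 in aged ones. The log2 age difference of Nampt in members minus that in arterial cells was -0.59 ± 0.15 (SE, adjusted p = 0.0208 by edgeR). Both calls were lost without the first young section, without either aged section and without a filter on low counts, and that of Cp also without the second young section, with differences of 0.56 to 0.65 for Cp and -0.61 to -0.45 for Nampt in those fits.

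Against all other kept cells, the same kind of fit called 2 of 383 genes (0.522%), with 39 (10.2%) at an unadjusted p under 0.05. One was Vtn, a gene of the rule. The other was Il33, an alarmin that stood at 17.0 and 18.6 at 2 months in other cells, against 45.2 and 35.5 at 18 months. In members Il33 stood at 5.67, 6.14, 9.27 and 6.67, so its log2 age difference was smaller there (-0.68 ± 0.14, SE, adjusted p = 0.0226 by edgeR). The Il33 call was lost without the first young section (log2 -0.63) or the second aged section (log2 -0.64).

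Beyond the genes of the rule, arterial cells and members had different levels of several endothelial genes in every section. These values are a description, since the rule parted the sets. Car4, a carbonic anhydrase of capillary endothelium, stood at 26.9, 33.1, 20.4 and 21.9 in members and 4.98, 3.33, 4.71 and 3.15 in arterial cells, 0.16 times the level. Slc16a1, the lactate and ketone body transporter MCT1, stood at 123, 105, 133 and 111 in members and 39.4, 44.7, 57.1 and 37.75 in arterial cells. Gatm, an enzyme of creatine synthesis, was 0.46 times as high in arterial cells, and Ctla2a 0.34 times. The opposite order held for Edn1 (2.60 times as high in arterial cells), Tm4sf1 (2.60), Cp (2.34), Timp3 (1.75) and Mgp (9.29).

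Members also varied among themselves along Vwf, a gene that rises towards veins in brain vessels. Between 11.8% and 14.8% of members held at least 2 Vwf transcripts (324, 281, 153 and 259 cells), and 65.3% to 75.4% held none. In kept cells outside the endothelial rule the share with at least 2 was 1.11% to 4.31%. The genes named here were picked after their values were seen, and carry no test. Vcam1 stood at 37.7, 53.7, 68.4 and 25.4 in members with at least 2 Vwf transcripts and at 6.35, 6.59, 5.86 and 4.88 in members with none. Icam1 was 3.39 times as high in the Vwf members, and Cd38 2.43 times. Stra6, a receptor for the retinol carrier, ran the other way, at 3.43, 2.30, 4.53 and 8.82 against 14.8, 6.61, 11.04 and 19.0. Cxcl12 also did, at 57.9, 52.1, 57.9 and 88.2 against 139, 132, 125 and 178. All 5 genes kept their order in each of the 4 sections. Markers of other cells moved with the Vwf class. The 4 mural genes of the rule summed to 37.4, 33.8, 26.2 and 24.2 in the Vwf members and 16.8, 15.2, 12.4 and 11.4 in members with none, with 3 of the 4 higher in every section, and Vtn alone was 3.67 times as high. Vwf itself stood at 53.4 in the 372 members with a mural share of 1 to under 2%. The 3 mural genes outside the rule did not part the classes, with ratios of 0.967 to 1.02. The ratio was 1.07 to 1.13 for the 7 astrocyte genes (of which Gfap had 2.08), 1.16 to 1.66 for the 5 oligodendrocyte genes, 1.40 to 2.10 for the 10 microglia genes, 1.63 to 3.66 for the 3 border macrophage genes and 0.396 to 0.694 for the 7 neuron genes. Their part in the Vwf differences was not tested. Car4 and Slc16a1, which parted members from arterial cells, differed little between the Vwf classes, with ratios of 1.01 to 1.31 and 1.04 to 1.39.

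Members with Vwf transcripts were deeper (medians of 249 to 350.5 transcripts) than those with none (160 to 210). A comparison chosen after seeing the data therefore thinned every member to 100 transcripts. It left out 250, 292, 219 and 297 shallower members and set cells with a Vwf transcript against cells with none. Vcam1 was then 3.94, 5.44, 6.40 and 2.85 times as high with Vwf. Icam1 was 2.16, 1.51, 2.07 and 1.76 times as high, and Cd38 1.56, 1.38, 1.64 and 2.05 times. Stra6 was 0.25, 0.65, 0.46 and 0.73 times as high, and Cxcl12 0.61, 0.52, 0.69 and 0.81 times. All 5 genes kept their direction in every section. The sizes cannot be set against those above, since the classes (any Vwf transcript in place of at least 2) and the cells changed along with the depth. A Vwf transcript was found in 16.9%, 15.3%, 20.1% and 22.9% of members at this depth, against 1.33% to 3.65% of spiny neurons, and in 29.97%, 24.6%, 27.5% and 34.7% of members without thinning.

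**Figure D4:**
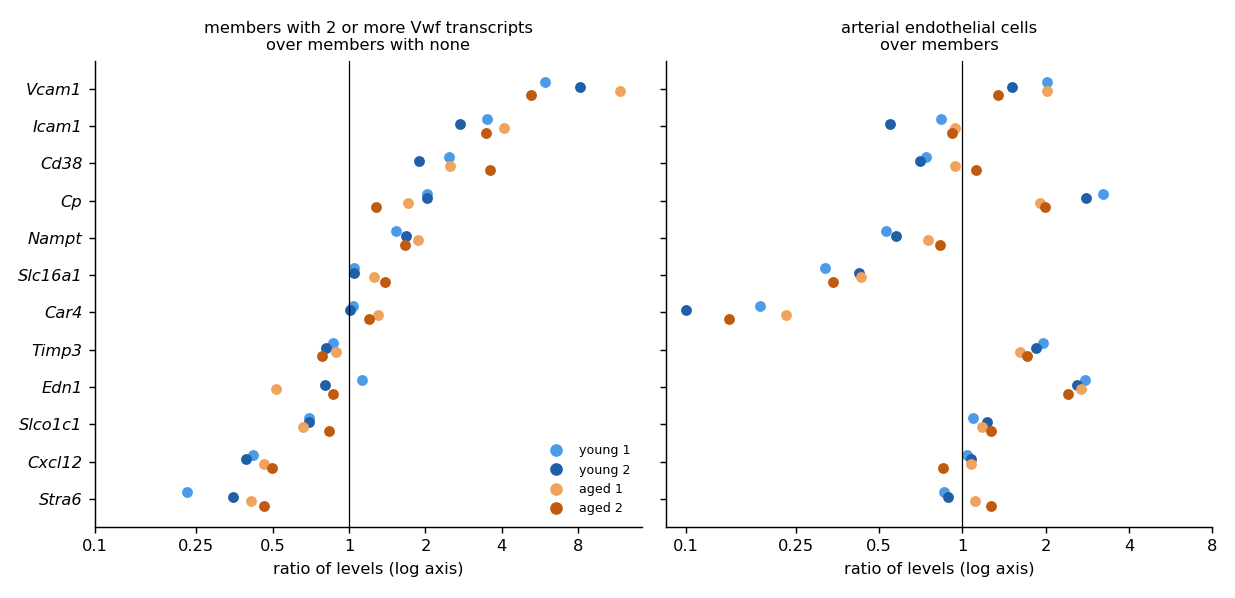
Ratio of gene levels between members with at least 2 Vwf transcripts and members with none (left), and between arterial endothelial cells and members (right), on log axes with 1 point per section. Vcam1, Icam1 and Cd38 lie above 1 and Cxcl12 and Stra6 below 1 on the left in all 4 sections. Car4 and Slc16a1 lie far below 1 only on the right (means of 0.16 and 0.38), and Edn1, Cp and Timp3 above it.

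Position within the section, which the rule did not use, went along with gene levels in members. In the fit of striatal against remaining zone, with the section as a block, 98 of 368 genes (26.6%) passed, 42 (11.4%) higher and 56 (15.2%) lower in the striatal zone, and 131 (35.6%) had an unadjusted p under 0.05. Most were not enriched in members: 82 of the 98 were neither of the rule nor enriched in members, and 76 of these 82 had the same sign in other kept cells. All 6 spiny neuron genes were higher in striatal members, and 5 of 7 neuron genes were lower. Those 6 spiny neuron genes also defined the striatal zone, so their direction was built into the comparison. They are counted among the 98. Of the 103 tested genes enriched in members outside the rule, 9 were higher in striatal members and 6 lower.

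Stra6 had the largest difference among the enriched genes. It stood at 18.0, 8.23, 13.1 and 22.8 in striatal members and 8.25, 4.43, 7.72 and 12.8 in members of the remaining zone, a log2 difference of 0.97 ± 0.10 (SE, adjusted p = 7.2e-07 by edgeR). In other kept cells the difference was 0.56. Apoe, the lipid carrier, stood at 253, 240, 294 and 283 against 198, 190, 191 and 183, a log2 difference of 0.53 ± 0.05 (SE), and its difference in other cells was 0.17. Clu, another apolipoprotein, stood at 179, 150, 190 and 162 against 167, 123, 150 and 121 (log2 difference 0.32, against -0.12 in other cells). Apoe and Clu are abundant in astrocytes. Of the astrocyte list, 4 of the 7 genes were lower in striatal members. The part of astrocyte transcripts in the Apoe and Clu differences was not tested.

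Edn1 stood at 18.5, 18.7, 19.8 and 30.9 in striatal members and 17.1, 15.1, 13.9 and 21.0 in the remaining zone (log2 difference 0.40 ± 0.09, SE, against -0.19 in other cells). Timp3 (log2 difference 0.21) and Cp (0.24) were also higher in striatal members in 4 of 4 sections, while their differences in other cells were 0.04 and 0.01. Cd38 had a log2 difference of 0.37, against -0.61 in other cells, and Foxo1 had 0.26, against 2.15 with the same sign in other cells. The calls of both were lost when single sections were left out, and so was that of Cp without the second aged section (log2 0.22).

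Nampt ran the other way, at 76.2, 70.7, 44.8 and 57.5 in striatal members and 90.8, 86.1, 59.0 and 73.7 in the remaining zone (log2 difference -0.27 ± 0.04, SE, adjusted p = 0.00015 by edgeR), and its difference in other cells was -0.02. Fn1 (-0.17) and Slc16a1 (-0.15) were also lower in striatal members in 4 of 4 sections, and both differences were larger in other cells, at -0.33 and -0.38. Fn1 lost its call without the second young section (log2 -0.11), and Slc16a1 without either aged section (log2 -0.13 and -0.12). The genes Alas2 (-0.82), Cdkn2b (-0.72) and Synm (-0.17) completed the lower set, each with a lost call when 1 or more sections were left out. In other cells Synm had -1.19, of the same sign, and Alas2 and Cdkn2b had 0.34 and 1.28. Among the 14 genes of the rule only Adgrl4 passed in this fit, which tested 3 of the 4 mural genes.

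White matter members, 48 to 73 per section, were compared with striatal members over 308 genes, and 95 (30.8%) passed, 29 (9.42%) higher and 66 (21.4%) lower, with 105 (34.1%) at an unadjusted p under 0.05. Again 81 of the 95 were neither enriched nor of the rule, with 75 of the same sign in other cells. All 5 oligodendrocyte genes were higher and all 6 spiny neuron genes lower. Both sets of genes also defined the zones, so their direction was built into the comparison. They are counted among the 95. Of 102 enriched genes tested outside the rule, 4 were higher and 9 lower in white matter. Vim, an intermediate filament, stood at 77.6, 80.5, 104 and 77.6 in white matter members and 50.2, 64.2, 69.1 and 61.6 in striatal members (log2 difference 0.42 ± 0.11, SE, adjusted p = 0.0011 by edgeR). Its difference in other cells was 1.40.

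Slc16a1 stood at 150, 133, 165 and 122 in white matter members and 116, 98.1, 117 and 96.1 in striatal ones (log2 difference 0.36 ± 0.10, SE). Oligodendrocytes also express this transporter, and its difference in other cells was 2.14. Vwf was higher in 4 of 4 sections, at 36.6, 29.5, 60.2 and 35.1 against 23.5, 27.0, 31.2 and 34.4 (log2 difference 0.39 ± 0.15, SE), with -0.65 in other cells. Its call was lost without the first young section (log2 0.35) or the first aged section (log2 0.30). Gatm (log2 difference 0.31) was the fourth, with 3.85 in other cells, and its call was lost without the second young section (log2 0.28).

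Nampt was lower in white matter members in 4 of 4 sections, at 70.8, 43.6, 30.6 and 28.3 against 76.2, 70.7, 44.8 and 57.5 (log2 difference -0.60 ± 0.13, SE), and went the other way in other cells (0.35). Apoe likewise stood at 184, 174, 162 and 186 against 253, 240, 294 and 283 (log2 difference -0.63), with 0.73 in other cells. Timp3 had a log2 difference of -0.43, against -0.17 in other cells. Stra6 had -1.08, against a larger -2.03 in other cells, and lost its call without the second young section (log2 -0.78). Car4 (-0.49), Edn1 (-0.53), Itih5 (-0.32) and Igf1r (-0.31) passed as well. Their differences in other cells were -0.13, -1.14, 0.53 and 0.57. Edn1 was lower in 3 of 4 sections, since the first young section had 22.4 in white matter and 18.5 in striatal members. Itih5 was also lower in 3 of 4, since the first aged section had 113.7 in white matter and 113.5 in striatal members. Each of these 4 calls was lost when single sections were left out, and Car4 lost it in every such fit. The last of the 9, Cxcl12, had a log2 difference of -0.25 (adjusted p = 0.0498 by edgeR).

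**Figure D5:**
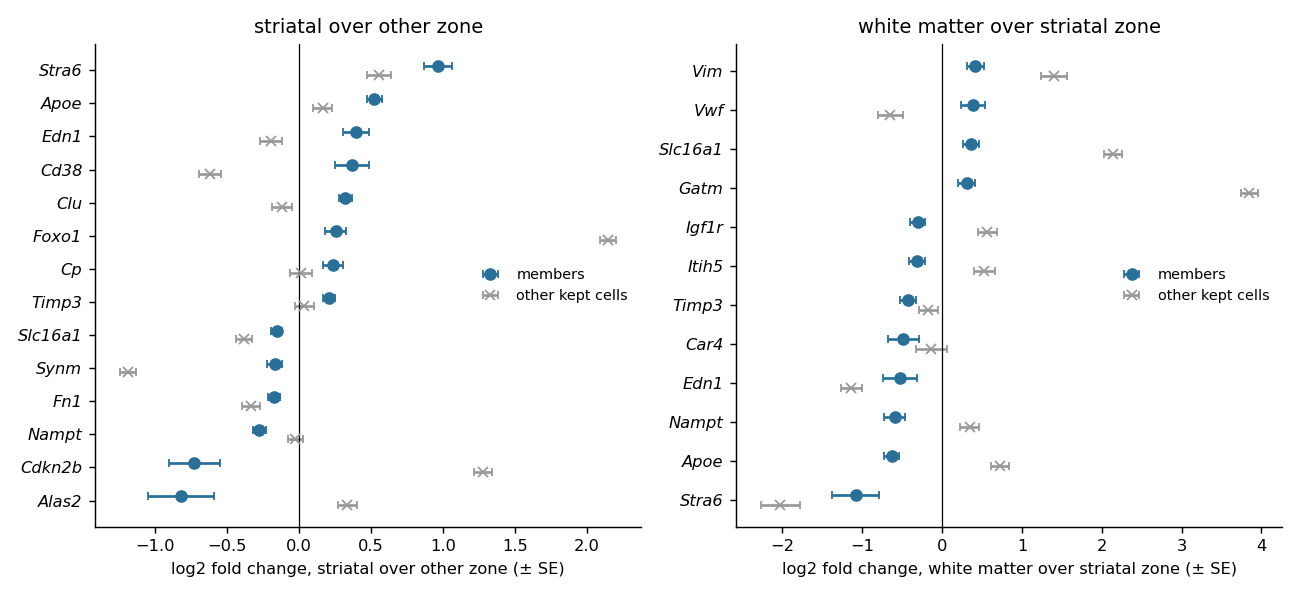
Log2 fold change with its SE of the named enriched genes between striatal and remaining zone (left) and between white matter and striatal zone (right), in members (blue circles) and in other kept cells (grey crosses). Stra6, Apoe, Edn1 and Timp3 are positive on the left and negative on the right in members, Nampt is negative in both, and for Apoe and Nampt on the right the other cells have the opposite sign.

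The age difference itself was compared between striatal members and members of the remaining zone. The fit covered 368 genes and called 2 (0.543%), with 38 (10.3%) at an unadjusted p under 0.05. Apoe had a larger age difference in striatal members, by a log2 of 0.32 ± 0.05 (SE, adjusted p = 0.0301 by edgeR), since its level was 253 and 240 against 294 and 283 in the striatal zone and 198 and 190 against 191 and 183 elsewhere. In this fit 6 of the 7 astrocyte genes were above 0 (median log2 0.17), as were 186 of all 368 genes. Of the 7, 4 had an unadjusted p under 0.05 by edgeR, and 0 passed. The part of astrocyte transcripts in the Apoe difference was not tested. Cplx2, a presynaptic gene of neurons that was 0.44 times as high in members as in other cells, had a lower age difference in striatal members (log2 -0.42 ± 0.07, SE, adjusted p = 0.0301 by edgeR). Both calls were lost without either young section or without the second aged section, with differences of 0.27 to 0.29 for Apoe and -0.48 to -0.40 for Cplx2 in those 3 fits, and that of Apoe also with a zone limit of 30% of neighbours (log2 0.28).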

How the data were processed

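MERFISH was run on 4 sections, 2 at 2 months and 2 at 18 months. Per the study's methods, images were decoded with MERLIN and cells were segmented by the authors. The deposited tables hold a raw count per cell for every one of 383 genes, in whole transcripts. The deposited volume and position of each cell, imaging signals in µm³ and µm, were used as given. A deposited table of mean count per gene and section served only to check the reading (largest difference 4.66e-09). Probe sequences were not used here. The files give symbols, and coordinates are those of GENCODE vM21 (GRCm38).

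The quality limits of the methods were kept, so that a cell needed at least 10 detected genes and 50 µm³. No doublet caller was run, and the limit on mural genes removes 1 kind of mixed cell. The 6 spiny neuron genes (4 detected, 5% of counts) and the 5 oligodendrocyte genes (3 detected, 10%) defined the cells behind the zones, and areas came from 50 µm squares that held a kept cell. Each set of cells gave 1 summed count per gene and section, and these sums were compared with edgeR 4.0.16 (TMM factors of 0.978 to 1.03, filterByExpr, quasi-likelihood test, Benjamini-Hochberg over all genes tested, threshold 0.05) in R 4.3.3. Differences between sets or zones had the section as a block. DESeq2 1.42.0, limma 3.58.1 on log2(counts per 10000 + 0.1), other filters, scalings, member rules and zone limits, and leaving out each section were alternatives. Single values were compared by exact permutation tests (scipy 1.17.1). Python 3.11.15, numpy 2.4.6, pandas 2.3.3 and matplotlib 3.10.9 did the rest.

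Genes were named by rule: the 14 genes of the member rule, enriched genes past the threshold (at least 1.5 times the level in other kept cells), the 10 enriched genes with the lowest unadjusted p where fewer than 10 passed, up to 8 enriched genes per direction for zones, and examples from 26 lists. Genes beside the Vwf classes were picked after their values were seen. Members, rule and lists were chosen with earlier results of these data known. Counting error grows as totals fall, and members held 596408, 552381, 243693 and 367266 transcripts. Values of some genes are not reported here.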

Additional observations from a re-analysis of the deposited data

Results flagged for a closer look

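The 5 differences below stand out because the test of the difference between 2 sets of cells passed, and the cause was not tested in any of them. The log2 age difference of Cp was 0.59 larger in members than in arterial endothelial cells, and that of Nampt differed by -0.59. The log2 age difference of Il33 differed by -0.68 between members and all other kept cells. Between striatal members and members of the remaining zone, the log2 age difference of Apoe differed by 0.32 and that of Cplx2 by -0.42. All 5 lost their call in at least 2 of the 4 fits that left out a section. Groups of 2 sections are too small to look for a single section far from the others.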

How the results depend on the processing

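For the age comparison, counts of called genes were 0 in the reported fit, 2 with member volume as the scale, 1 with DESeq2, 1 under the looser member rule and 0 to 1 when a section was left out. With the replicate number of the titles as a block (replicate block), 0 genes passed and 25 had an unadjusted p under 0.05. The other 8 alternatives called 0 as well. Deviations of same-numbered sections correlated at -0.057, and the numbers were not taken as pairs. Against arterial cells the 2 calls became 0 without a filter on low counts and 0 to 4 without a section. Against other kept cells the 2 calls became 0 to 14 without a section (14 without the second young one, 0 without the second aged one). The age difference between zones had 2 calls, 6 with a zone limit of 50% of neighbours and 0 to 8 without a section. The zone comparisons themselves stayed within 1.5 times their counts of 98 and 95 under every alternative. Of 402 values of named genes under alternatives, 339 kept sign and side of the threshold, 60 lost their call, 2 gained one, and 1 turned sign, Ahnak (age difference -0.0843 with member volume as the scale). The aged over young ratio of the share of members was 0.458 to 0.778 and that of density 0.457 to 0.772. Depth limits rare genes and white matter members, with 48 to 73 cells per section.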
